A study of Arabidopsis thaliana with 12 samples.

Results

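The comparison described here set whole Arabidopsis thaliana roots late in sulfur deficiency, at 48 h and 72 h, against roots at 12 h and 24 h. All 4 groups came from ecotype Columbia seedlings that were raised on standard medium for 5 days before transfer to sulfur-deficient medium, whose listed salts include no sulfate. The late side pooled the 2 arrays of 48 h and the 2 of 72 h, and the middle side the 2 arrays of 12 h and the 2 of 24 h, chosen by their titles. That is 8 of the 12 arrays of the series. The other 4, from roots moved to fresh standard medium (0 h) and from roots 3 h on deficient medium, are not part of the comparison and are given below as levels. They entered only 1 alternative fit, which took the spread from all 12 arrays. No later time had roots kept on standard medium, so sulfur supply, seedling age and time since transfer cannot be told apart. Of the 4 times only 12 h was not a whole number of days after transfer, so hour of day cannot be told apart from the other differences of that harvest. Nothing in the labels says that replicates were grown or harvested apart, and p-values therefore measure the spread between these arrays, which may be technical.

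Roots take up sulfate and activate it with ATP sulfurylase before it is reduced and built into cysteine, from which methionine, glutathione and, in this plant family, glucosinolates are made. Glucosinolates store sulfur, and when sulfate is short plants are known to slow their synthesis and to raise beta-glucosidases that can release the sulfur they hold. Roots deprived of sulfate for days also change growth, cell wall remodelling and the handling of other nutrients.

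Values are linear MAS5 signals, 1 per probe set and array, MAS5 being the Affymetrix method that turns the matched and mismatched probes of a set into 1 number. A level is given as a signal, and a difference as log2 of late minus log2 of middle. The median signal lay between 80.7 and 87.1 on these 8 arrays. Log2 signals correlated at 0.979 to 0.983 between the arrays of 1 time, at 0.971 to 0.986 between the times of a side and at 0.962 to 0.983 across sides, over the same probe sets and with genes not independent. For the ubiquitin control the 3' signal over the 5' signal was 1.91 to 2.37 on the middle arrays and 2.41 to 2.60 on the late arrays, without overlap, and for the GAPDH control it was 0.634 to 0.742 and 0.738 to 0.816. For the actin control it was far higher, 18.8 to 27.8 on the middle arrays and 23.1 to 27.6 on the late arrays, with overlap. The ratio of 3' to 5' signal reflects RNA integrity and labelling, and its part in the results below was not tested. In whole roots a lower signal cannot be told apart between fewer cells of a type and less RNA per cell.

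Of 14319 probe sets tested, 116 differed between late and middle (0.81% of those tested), 42 higher late (0.293%) and 74 lower (0.517%), by limma on the 8 arrays with a Benjamini-Hochberg adjusted p under 0.05. The difference was at least 2-fold for 16 of the 42 and for 34 of the 74. The median difference over all probe sets tested was 0.02. In every one of the 116 the 4 late values lay apart from the 4 middle values, as they did in 910 of all probe sets tested (6.36%), with late above middle in 3.39% and below it in 2.97%. Of the 116, 46 were paired with 1 gene, and these made up 15 genes higher and 30 lower.

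**Figure D1:**
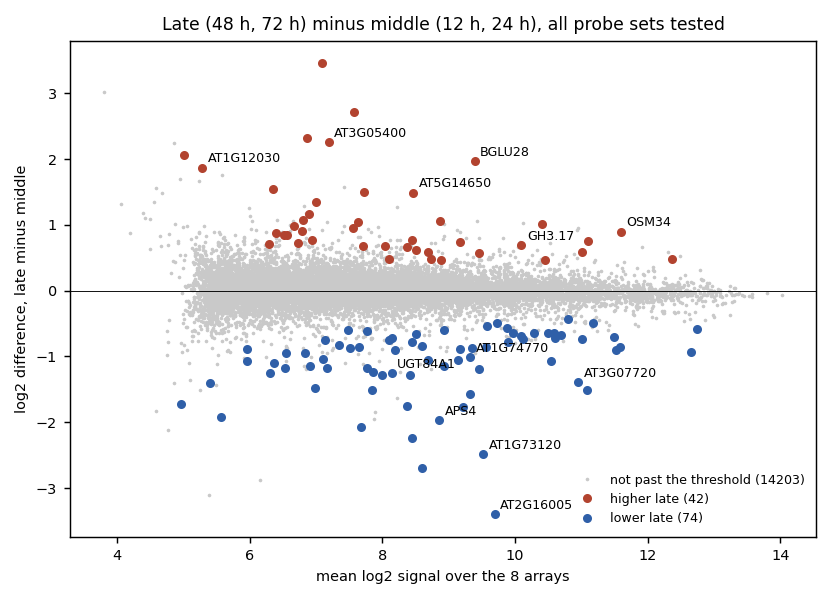
Log2 difference between late and middle arrays against the mean log2 signal over the 8 arrays, 1 point for each of 14319 probe sets. Red points are the 42 probe sets higher late and blue points the 74 lower late at an adjusted p under 0.05, and selected genes are labelled.

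At an unadjusted p under 0.05 there were 1628. The count depended on which times made up a side. With the arrays of 1 time treated as sharing a harvest (time as a random block, correlation 0.051), 102 passed (0.712%). All 102 were among the 116. That correlation is 1 value for all probe sets, so it may understate a shared harvest for single genes. Each side holds only 2 times. Without the 12 h arrays 21 passed and without the 72 h arrays 15, while 494 passed without the 24 h arrays and 160 without the 48 h arrays. With a mean for each of the 4 times, so that change within a side no longer counts as spread, 474 passed (3.31%), among them all 116. The pooled comparison therefore favours genes whose 2 times on a side were alike beside the gap between the sides. Genes that kept changing within a side can fall outside it, though some were called. BGLU28, described below, moved by 0.94 from 12 h to 24 h, 0.79 from 24 h to 48 h and 1.42 from 48 h to 72 h.

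**Figure D2:**
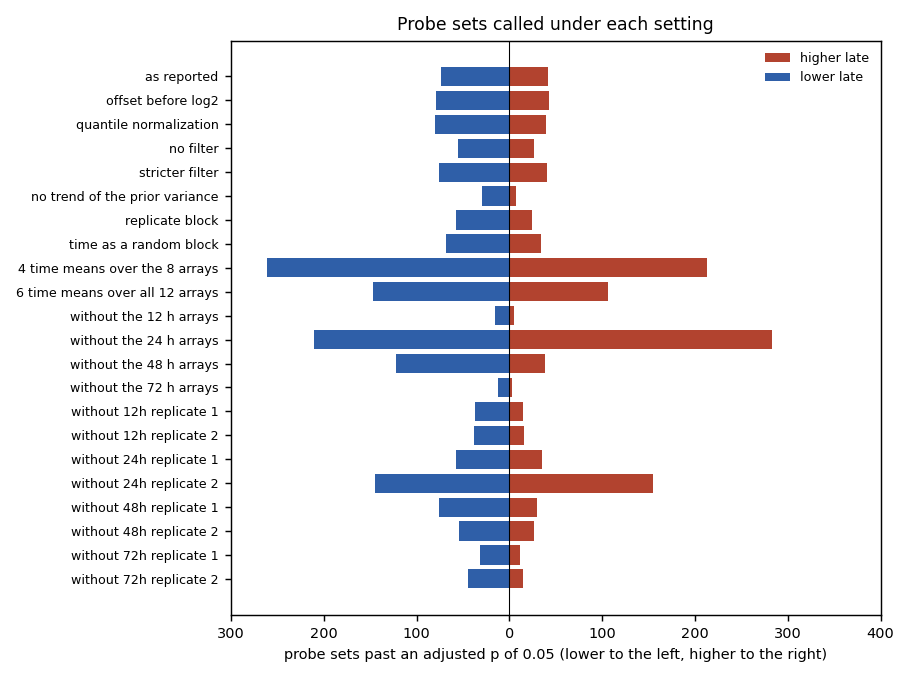
Number of probe sets past an adjusted p of 0.05 under each setting, lower late to the left and higher late to the right of 0. The comparison as reported gives 74 and 42, and the counts shrink most when the 12 h or the 72 h arrays are left out.

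The beta-glucosidase BGLU28, which can act on glucosinolates and is a known marker of sulfur shortage, was higher late. Its signals were 163 and 369 at 12 h, 489 and 450.3 at 24 h, 646 and 1022 at 48 h and 2005 and 2360.0 at 72 h. Every late array lay above every middle array, and levels climbed again between 48 h and 72 h. The difference was 1.97 ± 0.39 (SE, adjusted p = 0.0362), which is 3.92-fold. At 0 h the signals were 15.8 and 14.0, and at 3 h 1929.7 and 2825, so the late values climbed back towards those of 3 h after a lower middle period. The second marker of sulfur deficiency measured, AT1G04770 (SDI2), read 472 and 663 at 12 h, 659 and 496 at 24 h, 712 and 691 at 48 h and 811 and 828 at 72 h. Its late and middle values did not overlap either, but the difference of 0.42 ± 0.13 (SE, adjusted p = 0.172) did not pass. Thus 1 of the 2 measured markers of sulfur deficiency rose, against 0.293% of all probe sets. BGLU28 lost its call without either 12 h array, 48 h replicate 2 or either 72 h array (differences of 1.62 to 2.32 over the 8 fits, adjusted p up to 0.135).

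The ATP sulfurylase APS4, which catalyses the first step of sulfate assimilation, was lower late. Its signals were 1192 and 796 at 12 h, 765 and 979.9 at 24 h, 358 and 272 at 48 h and 178 and 174 at 72 h. The late arrays were all below the middle arrays, with 72 h below 48 h. The difference was -1.97 ± 0.21 (SE, adjusted p = 0.00169), a 3.92-fold fall, and it passed without any 1 array and without the arrays of any 1 time. At 0 h the signals were 1808 and 1759, above both sides. Its isoform APS3 read 136 and 156 at 12 h, 146 and 119 at 24 h, 128 and 159 at 48 h and 131 and 129 at 72 h, a difference of -0.02 ± 0.13 (SE, adjusted p = 0.962) with overlapping sides. Sulfite reductase SIR, which reduces the sulfite that follows, ranged from 1398 to 1682 on the middle and from 1511 to 1922 on the late arrays, and its difference of 0.14 did not pass (adjusted p = 0.635). Of 3 measured members of sulfate assimilation 1 fell, beside 0.517% of all probe sets, none rose, and their median was -0.02. Most entries of that list, such as APS1, APR1 and GSH1, matched no gene name and are not counted. The list was chosen with earlier results of these data known, so the count gives no rate for the pathway. Sulfate transporters were not analysed here.

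Genes of glucosinolate synthesis had differences below 0 but none passed. BCAT4, the aminotransferase that starts methionine chain elongation, read 573 and 513 at 12 h, 575 and 453 at 24 h, 465 and 425 at 48 h and 61.3 and 68.3 at 72 h. Its 48 h values lay within or just below the middle values and the 72 h arrays were far lower. The pooled difference of -1.63 ± 0.56 (SE, adjusted p = 0.248) did not pass, whereas with a mean for each time it did (adjusted p = 1.62e-06). The glucosyltransferase AT2G31790 (UGT74C1) had the same shape, with signals of 151 and 245 at 12 h, 202 and 128 at 24 h, 199 and 162 at 48 h and 68.3 and 43.3 at 72 h and a pooled difference of -0.83 (adjusted p = 0.452). GSTU20 and the glucosyltransferase UGT74B1 stood at -0.59 and -0.43 (adjusted p = 0.388 and 0.303). All 4 measured members were below 0, with a median of -0.71. That none of 4 passed, beside 0.81% of all probe sets, says little about the list. Without the 72 h arrays BCAT4 stood at -0.24 and AT2G31790 at 0.03.

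The methionine sulfoxide reductase MSRB6, which repairs oxidised methionine, also differed within the sides. It read 803 and 776 at 12 h, 214 and 303 at 24 h, 294 and 169 at 48 h and 63.2 and 78.5 at 72 h. Signals were lower at 24 h than at 12 h and lower again at 72 h than at 48 h, and late and middle values overlapped. The difference of -1.84 ± 0.49 (SE, adjusted p = 0.113) did not pass, and with a mean for each time it did (adjusted p = 2.90e-05). The other 4 measured members of that family, MSRB9, MSRB5, MSRA5 and MSRB3, did not pass, with differences from -0.08 to 0.44.

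AT3G05400, a member of the sugar transporter family, was the named gene with the largest rise. Its signals were 49.3 and 61.0 at 12 h, 94.5 and 70.3 at 24 h, 168 and 258 at 48 h and 497 and 490.1 at 72 h. Each time stood above the one before, and 0 h was lower still at 17.4 and 10.3. The difference was 2.26 ± 0.31 (SE, adjusted p = 0.0054), a 4.79-fold rise. It passed without any 1 array, but without the 12 h arrays it stood at 1.98 and did not pass (adjusted p = 0.0957). It was the only 1 called of 9 measured sugar transporters, against 0.293% of all probe sets that rose. AT3G05400 was on that list by an entry of its own, and the lists were chosen with earlier results of these data known. The count therefore gives no rate for the family. Of the 9, the SWEET and tonoplast transporters ranged from -0.27 to 0.83.

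Other rises included genes of pectin breakdown, proteolysis and defence. AT5G14650, a polygalacturonase-type enzyme that cuts pectin, read 240.0 and 247 at 12 h, 261 and 129 at 24 h, 311 and 577 at 48 h and 713 and 969 at 72 h. One 24 h array was low and the late values spread widely, and the difference was 1.49 ± 0.30 (SE, adjusted p = 0.0366). AT4G04460, an aspartic protease known as PASPA3 and used as a marker of developmental cell death, read 104 and 148 at 12 h, 157 and 151 at 24 h, 272 and 202 at 48 h and 340.0 and 350.3 at 72 h. All late arrays were above all middle arrays, by 1.05 ± 0.18 (SE, adjusted p = 0.0161). The osmotin OSM34, a defence protein of the thaumatin family, read 2599 and 1630.2 at 12 h, 2453 and 2575 at 24 h, 4358 and 3758 at 48 h and 4102 and 4822 at 72 h, a difference of 0.90 ± 0.14 (SE, adjusted p = 0.00923). Its 12 h replicate 2 was the lowest of the 8, and the 0 h signals of 4038 and 2867 lay between the sides on one array and with the late arrays on the other. For OSM34 the call was lost without the 72 h arrays, where the difference was 0.83 (adjusted p = 0.143).

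GH3.17, an enzyme that joins auxin to glutamate, had the smallest p-value among the named rises. Its signals were 897 and 805 at 12 h, 889.5 and 854 at 24 h, 1402 and 1477 at 48 h and 1423 and 1267 at 72 h. The step lay between 24 h and 48 h, where the log2 mean moved by 0.72, against 0.04 from 12 h to 24 h and -0.10 from 48 h to 72 h. The difference was 0.69 ± 0.08 (SE, adjusted p = 0.0036), and it passed without any 1 array or time. The other 4 measured members of the auxin response list did not pass. Of these GH3.3 and WES1, of the same enzyme family, stood at -0.42 and 0.04 (adjusted p = 0.371 and 0.947), and the regulators IAA18 and LBD16 at 0.20 and 0.28 (adjusted p = 0.524 and 0.55).

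The other 6 genes of the 12 highest were AT1G05575 at 0.95, the pathogenesis-related family gene AT1G78780 at 0.84, AT5G07820 at 0.77, the GDSL-type esterase AT2G03980 at 0.72, AT4G39160 at 0.72 and AT5G66490 at 0.58. Their adjusted p-values lay between 0.0197 and 0.0474. The 3 further named genes were AT1G12030 at 1.87, AT1G44970, a peroxidase, at 0.48 and TBL37, of a family that acetylates wall polymers, at 0.46. AT1G12030 was above the 40th percentile on 3 late arrays and on none of the middle arrays, and with an offset of 16.0 added before log2 it stood at 1.32 and did not pass (adjusted p = 0.0568). It also did not pass without either 12 h array, 24 h replicate 2, 48 h replicate 2 or either 72 h array (differences of 1.51 to 2.16 over the 8 fits, adjusted p up to 0.164). AT1G44970 did not pass without either 12 h array, 24 h replicate 1, either 48 h array or either 72 h array (differences of 0.42 to 0.51 over the 8 fits, adjusted p up to 0.141), nor TBL37 without either 12 h array, 24 h replicate 1, either 48 h array or either 72 h array (differences of 0.43 to 0.50 over the 8 fits, adjusted p up to 0.15).

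**Figure D3:**
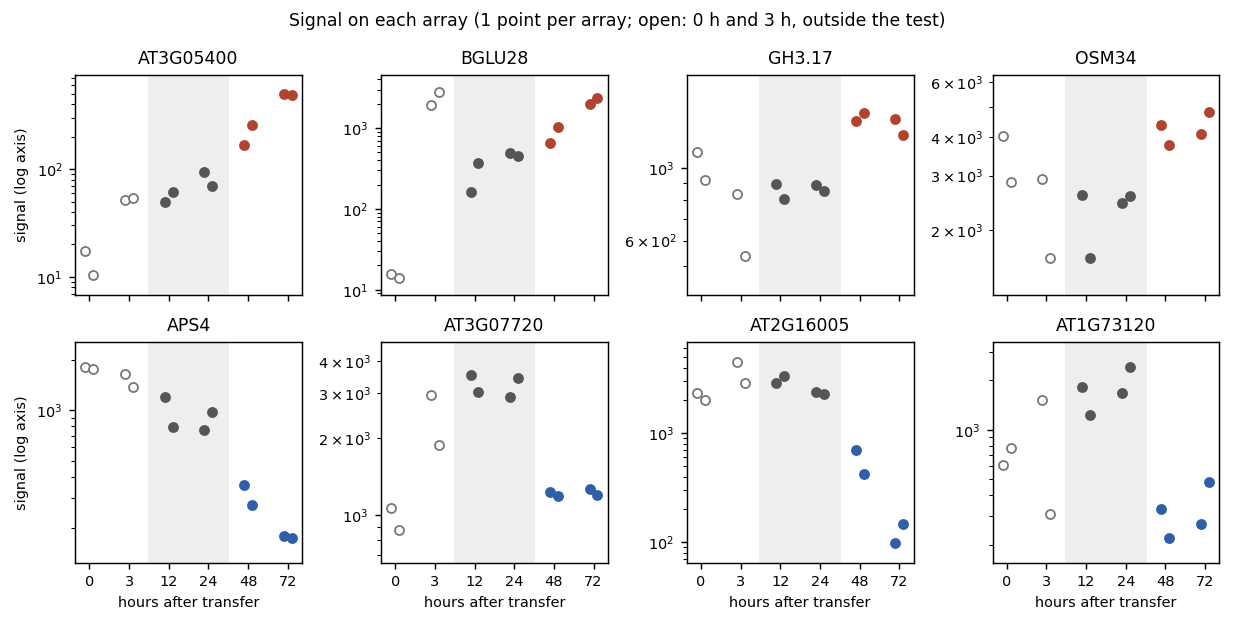
Signal on each array, on a log axis, against hours after transfer for 4 genes higher late (top row) and 4 lower late (bottom row). Grey points on a grey band are the 12 h and 24 h arrays, coloured points the 48 h and 72 h arrays, and open points the 0 h and 3 h arrays. In each panel the coloured points lie on 1 side of all grey points.

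Most of the 12 named rises did not pass when 1 array was left out. AT5G14650 did not pass without either 12 h array, 24 h replicate 1, 48 h replicate 2 or either 72 h array (differences of 1.25 to 1.80 over the 8 fits, adjusted p up to 0.135). AT4G04460 did not pass without 12 h replicate 1 or either 72 h array (differences of 0.91 to 1.21 over the 8 fits, adjusted p up to 0.0727). AT1G05575 did not pass without either 12 h array, 48 h replicate 1 or either 72 h array (differences of 0.83 to 1.12 over the 8 fits, adjusted p up to 0.0827). AT1G78780 did not pass without either 12 h array, 24 h replicate 1, either 48 h array or either 72 h array (differences of 0.73 to 0.96 over the 8 fits, adjusted p up to 0.128). AT5G07820 did not pass without either 12 h array, either 48 h array or 72 h replicate 1 (differences of 0.69 to 0.89 over the 8 fits, adjusted p up to 0.13). AT2G03980 did not pass without either 12 h array, 48 h replicate 1 or either 72 h array (differences of 0.64 to 0.81 over the 8 fits, adjusted p up to 0.143). AT4G39160 did not pass without either 12 h array, 24 h replicate 1, 48 h replicate 2 or either 72 h array (differences of 0.65 to 0.80 over the 8 fits, adjusted p up to 0.178). AT5G66490 did not pass without either 12 h array, either 48 h array or either 72 h array (differences of 0.49 to 0.66 over the 8 fits, adjusted p up to 0.124). Of these 12 genes 3 passed in all 8 fits, namely AT3G05400, OSM34 and GH3.17.

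Among the falls, AT2G16005, a gene of the lipid-recognition family that shares the ML domain, had the largest difference. Its signals were 2888 and 3359.5 at 12 h, 2364 and 2289.8 at 24 h, 698 and 425 at 48 h and 98.7 and 147 at 72 h. The fall went on from 48 h to 72 h, and 0 h stood within or just below the middle arrays at 2359 and 1995. The difference was -3.40 ± 0.46 (SE, adjusted p = 0.0054), 10.5-fold, and it passed without any 1 array, though not without the 12 h arrays (-3.18, adjusted p = 0.097). The neighbouring genes AT5G23840 and AT5G23830, of the same family, fell by 1.15 and 0.72 (adjusted p = 0.0167 and 0.0352). They lie outside the rule for naming and were chosen here after their values were seen. AT5G23840 lost its call without either 12 h array, 48 h replicate 2 or 72 h replicate 2 (differences of -1.33 to -1.003 over the 8 fits, adjusted p up to 0.0809) and AT5G23830 without either 12 h array, 24 h replicate 1, either 48 h array or either 72 h array (differences of -0.86 to -0.59 over the 8 fits, adjusted p up to 0.127).

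AT3G07720, which encodes a protein with kelch repeats, had the smallest p-value of all probe sets. Its signals were 3542 and 3032 at 12 h, 2883 and 3428 at 24 h, 1236 and 1189 at 48 h and 1264 and 1203 at 72 h. The levels within each side were nearly flat, and the whole change fell between 24 h and 48 h. The difference was -1.39 ± 0.09 (SE, adjusted p = 9.08e-06), a 2.63-fold fall. It passed without any 1 array or time, and 0 h stood below even the late arrays at 1062 and 874. AT1G73120 changed in the same interval, with signals of 1834 and 1234 at 12 h, 1667 and 2429.6 at 24 h, 328 and 219.6 at 48 h and 266 and 479.7 at 72 h. Its difference was -2.49 ± 0.23 (SE, adjusted p = 0.000296), a 5.62-fold fall that also passed without any 1 array or time.

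Glucosyltransferases that join sugars to small molecules were among the falls. UGT84A1, which glucosylates sinapate and related acids, read 628 and 533 at 12 h, 349.7 and 309 at 24 h, 214 and 229 at 48 h and 162 and 140.3 at 72 h, a difference of -1.25 ± 0.22 (SE, adjusted p = 0.0163). AT2G22590, also known as UGT91A1, read 269.8 and 271 at 12 h, 207 and 143 at 24 h, 127 and 111 at 48 h and 79.9 and 73.1 at 72 h, a difference of -1.18 ± 0.22 (SE, adjusted p = 0.025). In these 2 genes, mean signals stepped down at each later time, and 0 h stood at 202 and 135 for UGT84A1 and at 71.4 and 82.6 for AT2G22590. Of 32 measured genes on the UDP-glycosyltransferase list these 2 fell, against 0.517% of all probe sets, none rose, the others did not pass, and the median was 0.07. AT2G22590 was on that list by an entry of its own, and the lists were chosen with earlier results of these data known. The count therefore gives no rate for the family. AT2G16890 (UGT90A1), a family member that the list missed and that was chosen after its values were seen, read 197 and 213 at 12 h, 167 and 148 at 24 h, 103 and 99.3 at 48 h and 74.4 and 56.2 at 72 h, a difference of -1.15 ± 0.19 (SE, adjusted p = 0.0145). It did not pass without either 12 h array or 72 h replicate 1 (differences of -1.27 to -0.97 over the 8 fits, adjusted p up to 0.0655). UGT84A4, a relative of UGT84A1, stood at -0.62 just outside the threshold (adjusted p = 0.0564). In the other direction UGT71C2, UGT85A2 and UGT72E2 stood at 0.68, 0.38 and 0.30 and did not pass (adjusted p = 0.130, 0.135 and 0.202). On the list 4 members lay lower late without overlap and 3 higher, beside 2.97% and 3.39% of all probe sets tested. Of the 32 differences 15 were below 0 and 17 above.

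A pair of genes tied to iron supply fell. Roots short of iron secrete coumarins that make soil iron soluble. F6'H1 (AT3G13610), the enzyme that makes scopoletin's precursor, read 4821 and 5029 at 12 h, 3502 and 3089 at 24 h, 1820.2 and 2569.5 at 48 h and 2309.5 and 1974 at 72 h, a difference of -0.91 ± 0.16 (SE, adjusted p = 0.016). AT1G74770 (BTSL1), a ubiquitin ligase that restrains the iron response, read 897 and 1192 at 12 h, 832 and 778 at 24 h, 482 and 496 at 48 h and 464 and 375 at 72 h, a difference of -1.01 ± 0.14 (SE, adjusted p = 0.00512). Both its probe sets passed, the dimmer at -1.18 (adjusted p = 0.0409). These 2 genes are outside the iron list and were chosen after their values were seen. On that list, the regulator PYE read 105 and 130.1 at 12 h, 105 and 105 at 24 h, 62.5 and 77.4 at 48 h and 74.8 and 80.3 at 72 h, with no overlap between sides, but its difference of -0.59 ± 0.14 (SE, adjusted p = 0.0754) did not pass. AT3G12900 (S8H), which acts after F6'H1, read 215 and 248 at 12 h, 147 and 176 at 24 h, 44.9 and 72.7 at 48 h and 49.7 and 2.87 at 72 h, with no overlap, and its difference of -2.88 ± 0.75 (SE, adjusted p = 0.106) did not pass. Its 72 h replicate 2 was far below the other late arrays. Without that array the difference was -1.82 and passed (adjusted p = 0.00404), as it did with an offset of 16.0 added before log2 (-2.04, adjusted p = 0.0175). Without any other 1 array AT3G12900 did not pass (adjusted p = 0.0867 to 0.285), nor with time as a random block (adjusted p = 0.127). It passed without the 48 h or 72 h arrays (adjusted p = 0.0404 and 0.0168) but not without the 12 h or 24 h arrays (adjusted p = 0.648 and 0.108). BHLH101 stood at -0.88 (adjusted p = 0.264). None of the 3 listed members passed, beside 0.81% of all probe sets, so that count says little about the list. All 3 were below 0, and the median was -0.88. F6'H1 lost its call without either 12 h array or either 72 h array (differences of -1.03 to -0.80 over the 8 fits, adjusted p up to 0.0717), and also without all the 12 h or all the 72 h arrays, at -0.61 and -0.90 (adjusted p = 0.186 and 0.179). BTSL1 lost it without the 72 h arrays, at -0.90 (adjusted p = 0.0778).

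Other falls included genes of protein turnover and of the wall. The RING-type ubiquitin ligase AT4G09110 read 114 and 133 at 12 h, 67.0 and 70.4 at 24 h, 32.9 and 23.9 at 48 h and 18.0 and 25.002 at 72 h, a difference of -1.91 ± 0.27 (SE, adjusted p = 0.00623). The subtilisin-type protease AT4G10510 read 72.5 and 52.0 at 12 h, 50.5 and 53.9 at 24 h, 25.3 and 11.7 at 48 h and 15.3 and 19.4 at 72 h, a difference of -1.72 ± 0.29 (SE, adjusted p = 0.0152). None of the 4 late values of either reached the 40th percentile of its array (45.3 to 47.9), so the size of these 2 falls is uncertain, and with the offset they stood at -1.42 and -1.12, both past the threshold. The extensin-like gene AT1G26250 read 385 and 167 at 12 h, 137 and 228 at 24 h, 84.3 and 77.9 at 48 h and 80.3 and 64.0 at 72 h, a difference of -1.47 ± 0.25 (SE, adjusted p = 0.0152). AT3G61930 stood at -1.28, AT3G46270 at -1.24 and AT1G68500 at -1.18, with adjusted p-values of 0.00512, 0.00622 and 0.0306. The other 18 named genes that fell did so by 0.53 to 1.15 on the log2 scale. Among these AT2G29995, which encodes a precursor of the tyrosine-sulfated peptide family PSY, stood at -0.64 (adjusted p = 0.0379), and was named after its values were seen. It did not pass without either 12 h array, either 48 h array or either 72 h array (differences of -0.71 to -0.51 over the 8 fits, adjusted p up to 0.115).

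The calls of the falls that were lost without 1 array were these. AT4G10510 did not pass without either 12 h array or 72 h replicate 1 (differences of -1.90 to -1.53 over the 8 fits, adjusted p up to 0.0839). AT1G26250 did not pass without either 72 h array (differences of -1.68 to -1.19 over the 8 fits, adjusted p up to 0.0536). UGT84A1 did not pass without either 12 h array or either 72 h array (differences of -1.42 to -1.08 over the 8 fits, adjusted p up to 0.0719). AT2G22590 did not pass without either 12 h array, 24 h replicate 1 or either 72 h array (differences of -1.38 to -1.05 over the 8 fits, adjusted p up to 0.105). AT1G68500 did not pass without either 12 h array, 24 h replicate 1, 48 h replicate 2 or either 72 h array (differences of -1.39 to -0.98 over the 8 fits, adjusted p up to 0.121). Of these 12 genes 7 passed in all 8 fits, namely AT2G16005, AT1G73120, APS4, AT4G09110, AT3G07720, AT3G61930 and AT3G46270. Of all 24 genes, 6 passed without the 12 h arrays and 7 without the 72 h arrays, and GH3.17, APS4, AT3G07720 and AT1G73120 were among both.

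**Figure D4:**
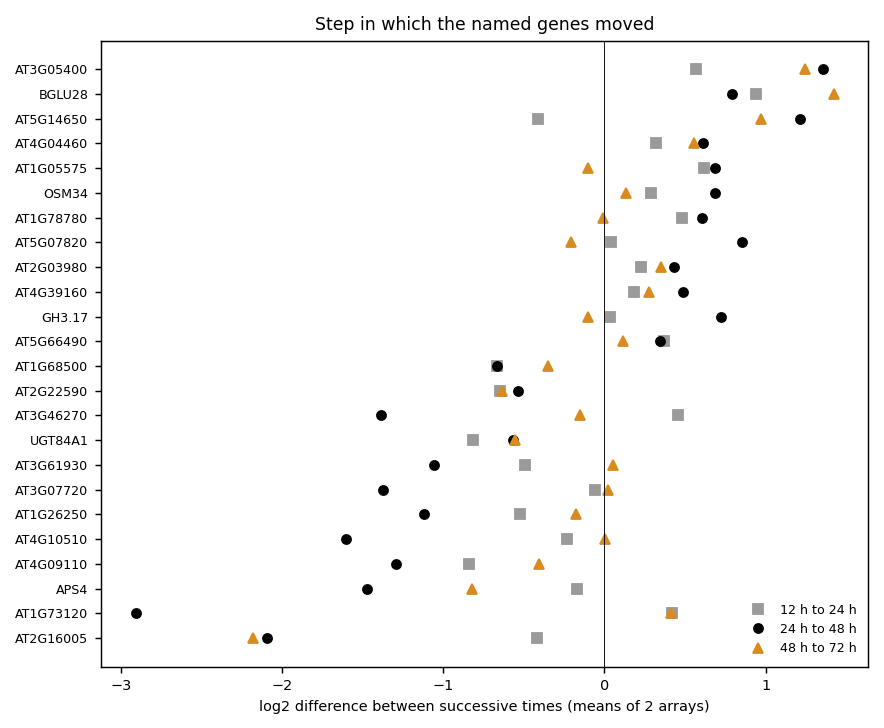
Log2 difference between successive times, from means of 2 arrays, for the 12 named genes that rose most and the 12 that fell most. For 19 of the 24 the step from 24 h to 48 h (black circles) was the largest of the 3, for BGLU28 and AT2G16005 that from 48 h to 72 h (triangles).

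Over the 24 genes, the step from 24 h to 48 h was the largest in 10 of the 12 higher and 9 of the 12 lower. That share is shaped by the comparison, which favours genes with little change inside a side, and carries no test. Over all 116 probe sets, 29 of the 42 higher and 49 of the 74 lower moved the same way in all 3 steps. The median steps of those higher were 0.30 from 12 h to 24 h, 0.66 from 24 h to 48 h and 0.18 from 48 h to 72 h, and of those lower -0.33, -0.71 and -0.12.

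The levels at 0 h, which were not part of the comparison, are placed here by their mean against the late and the middle mean. A 0 h mean that lay between them can be close to either. Of the 74 lower late, the 0 h mean lay between the late and the middle mean in 40, below the late mean in 24 and above the middle mean in 10. Of the 42 higher late, it lay between in 21, above the late mean in 5 and below the middle mean in 16. At 3 h, 38 of the 74 stood above the middle mean, and 29 of the 42 below it. The middle arrays helped to choose these probe sets, so these counts are a description only.

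Of 19 lists with at least 3 measured members, 5 had a called member, and 6 of 151 distinct list genes were called, beside 0.81% of all probe sets. The lists were chosen with earlier results of these data known, so that share is not independent evidence. The 6 were BGLU28, APS4, GH3.17, AT3G05400, UGT84A1 and AT2G22590. AT3G05400 and AT2G22590 were on their lists of transporters and glycosyltransferases by entries of their own. None passed among 12 measured expansins, 11 glutathione transferases, 10 autophagy genes, 9 cytochromes P450, 6 listed peroxidases, 6 xyloglucan endotransglucosylases, 5 WRKY factors, 3 genes of branched-chain amino acid breakdown or 3 isoflavone reductase-like genes. The called peroxidase AT1G44970 was not on the list, which was drawn by product wording. Of 8 beta-glucosidases only BGLU28 passed. Medians were 0.30 for beta-glucosidases, 0.22 for xyloglucan endotransglucosylases, 0.20 for auxin response, 0.17 for sugar transporters, 0.10 for branched-chain amino acid breakdown and 0.59 for isoflavone reductase-like genes. They were 0.09 for expansins and autophagy, 0.02 for cytochromes P450, -0.02 for peroxidases, -0.13 for glutathione transferases and -0.31 for WRKY factors.

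**Figure D5:**
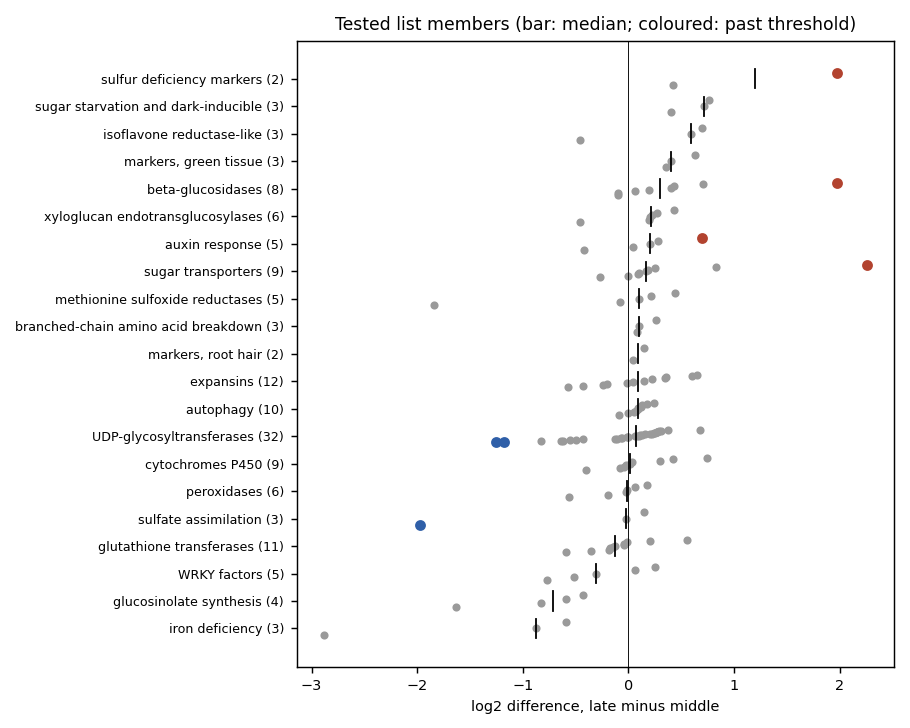
Log2 difference between late and middle for each measured member of the gene lists, with the number of members in parentheses and a bar at the median. Coloured points passed an adjusted p of 0.05, and most lists have none.

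Some members came close. GSTU27, a glutathione transferase, read 1091 and 1334 at 12 h, 1362 and 1196 at 24 h, 1604 and 1575 at 48 h and 2161 and 2038 at 72 h, with no overlap and a difference of 0.56 ± 0.12 (SE, adjusted p = 0.0523). The expansin-like genes EXLA1 and EXLA2 stood at 0.65 and 0.60 and did not overlap either (adjusted p = 0.0748 and 0.0714). BGLU15 stood at 0.41 and BGLU45, of a group linked to lignin precursors, at 0.70 (adjusted p = 0.070 and 0.119). The isoflavone reductase-like genes AT1G75280 and AT1G75290 stood at 0.59 and 0.69 (adjusted p = 0.0998 and 0.103).

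None of 3 measured genes that answer to sugar starvation passed, beside 0.81% of all probe sets, so that count says little about the list. Their median was 0.72. AT3G15450 read 648 and 685 at 12 h, 1359 and 2911 at 24 h, 2369.9 and 1912 at 48 h and 1759.8 and 1612 at 72 h, and its difference of 0.72 ± 0.36 (SE, adjusted p = 0.492) did not pass. The 12 h arrays were the lowest, and without them the difference was -0.07. AT1G80380, a glycerate kinase, stood at 0.77, and at 0.33 without the 12 h arrays, and AT2G20670 stood at 0.40, and at 0.12 without them (with all 8 arrays, adjusted p = 0.209 and 0.442). DEWAX (AT5G61590), a repressor of wax synthesis, read 308 and 309 at 12 h, 589 and 823 at 24 h, 1062 and 676 at 48 h and 744 and 788 at 72 h, and its difference was 0.80, and 0.21 without the 12 h arrays, neither past the threshold.

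Of the 10 measured entries of 5 lists of cell type markers none passed, beside 0.81% of all probe sets. A count of none among so few says little about cell types. Most entries of the marker lists matched no gene name, among them all those of a xylem and phloem list. The root hair expansins EXPA7 and EXPA18 summed to 578 to 898 on the middle and 701 to 935 on the late arrays. The green tissue genes RCA, LHCB4.1 and LHCB4.2 summed to 336 to 762 and 482 to 782, and LHCB4.2 was below the 40th percentile on 6 of the 8 arrays. Lateral root genes summed to 108 to 180 and 116 to 168. The endodermis genes GSO1 and AT4G28100 summed to 642 to 688 on the middle and 529 to 612 on the late arrays, without overlap, and neither passed. AGL42, of the root tip list, ranged from 97.7 to 166 and from 119 to 142. The part of these shifts in the results above was not tested.

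Probe sets that the platform table pairs with no single gene are given by their identifiers. The highest of them among the 116, 265170_at, had a difference of 3.46 and read 136 and 399 at 48 h and 932 and 805 at 72 h, against 24.5 to 63.7 on the middle arrays. The lowest, 251438_s_at, had a difference of -2.69 and went from 1298 and 1303 at 12 h to 78.1 and 108 at 72 h. Both passed (adjusted p = 0.00622 and 0.00512).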

How the data were processed

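Biotin-labelled cRNA from whole-root RNA was hybridised to 1-colour Affymetrix arrays. The deposited table holds linear MAS5 intensity values for 22810 probe sets on 12 arrays, per the submitters' processing notes, which name MAS5 without a version. Trimmed means of 250.0238 to 250.0268 show that each array had been scaled to a common level. After 64 control probe sets were left out, log2 intensities were tested without further normalization in limma 3.58.1 under R 4.3.3 (lmFit, eBayes with an intensity trend, 6 residual degrees of freedom), with p-values adjusted by Benjamini-Hochberg over the 14319 probe sets above their array's 40th percentile (45.3 to 47.9) on at least 2 of the 8 arrays. The number of arrays limits the precision. The script was checked on simulated data.

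The platform annotation gave 13513 probe sets 1 gene symbol, 503 several and 8730 none, and 13436 were matched by gene number to RefSeq's TAIR10.1 table. Genes were named by rule: the 12 highest and 12 lowest differences among called probe sets with 1 gene, no overlap between sides and a brighter side above the 40th percentile on all 4 arrays, at most 4 genes per list in order of p-value, and every measured sulfur assimilation gene and sulfur deficiency marker. The comparison and the 39 lists (343 entries, 74 of them matching a named gene) were chosen with earlier results of these data known, and after the table was read 2 entries that matched unrelated genes were removed and the cytochrome P450 entry was narrowed. Replicate numbers did not pair the arrays. Alternatives were another offset, normalization, filter, variance prior and error term, and leaving out times and arrays. Promoter and protein sequences were not used here.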

Additional observations from a re-analysis of the deposited data

Results flagged for a closer look

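In 17 of 248 sets of 4 arrays examined (a gene on 1 side), 1 array stood apart from the other 3 by Dixon's test. Chance gives about 1 in 20 such sets, and each side joins 2 times, so a step between times can also set arrays apart. Of these genes 6 were called. AT5G14650 read 128.7 on 24 h replicate 2 against 240.0 to 260.7 on the other middle arrays. AT4G04460 read 103.6 on 12 h replicate 1 against 147.5 to 157.2. OSM34 read 1630 on 12 h replicate 2 against 2453 to 2599. AT1G68500 read 96.24 on 72 h replicate 2 against 158.9 to 172.1 on the other late arrays. AT1G56320 read 1464 on 48 h replicate 2 against 1131 to 1177, and AT2G44670 read 707.8 on 72 h replicate 1 against 608.1 to 622.9.

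The other 11 were list members that did not pass. On the middle side, the clock gene GI read 392.7 on 24 h replicate 1 against 309.8 to 313.4, and the iron regulator PYE 130.1 on 12 h replicate 2 against 104.8 to 105.1. AT4G28100, of the endodermis list, read 101.3 on 12 h replicate 1 against 151.2 to 161.0, and the sugar transporter SWEET2 335.1 on 24 h replicate 2 against 269.6 to 276.7.

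On the late side, 48 h replicate 2 stood apart for the expansin EXPB1 (445.3 against 495.6 to 505.9), for APS3 (159.0 against 128.0 to 131.1) and for UGT84A4 (395.6 against 387.6 to 388.4). It also did so for the xyloglucan endotransglucosylase XTH18 (872.4 against 1367 to 1398). The hypoxia list gene AT1G33055 read 290.1 on 48 h replicate 1 against 108.3 to 124.5. AT3G12900 read 2.866 on 72 h replicate 2 against 44.93 to 72.68. The peroxidase AT5G66390 read 2497 on 72 h replicate 2 against 1911 to 1939.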

How the results depend on the processing

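The total of 116 calls (42 higher, 74 lower) stayed within 1.5 times with an offset, quantile normalization, no filter, a stricter filter, the replicate block or the 48 h arrays left out. The probe sets were not all the same. Of the 116, 71 were among the 160 called without the 48 h arrays and 80 among the 81 called without the filter. With the offset 115 of them passed, with quantile normalization 111 and with the stricter filter 114. Without a trend in the variance prior 36 passed (7 higher, 29 lower), and 34 with time as a random block. With 4 time means 474 passed (213 and 261), and with 6 time means over all 12 arrays 253 (106 and 147). Without the 12 h arrays 21 passed (5 and 16), without the 24 h arrays 494 (283 and 211) and without the 72 h arrays 15 (3 and 12). Without the 48 h arrays 122 were lower, and without the filter 26 were higher. Leaving out 1 array gave 43 to 300 (11 to 155 higher, 32 to 145 lower), and 30 to 479 with time as a random block. The total was 52 or 54 without the first or second 12 h array, 43 or 60 without the first or second 72 h array, and 300 without the second 24 h array. Of the 116, 38 passed in all 8 such fits. The cause of these shifts was not tested. The fits that leave some arrays out also have fewer arrays, and the time means remove change within a side. The random block was not combined with the time means or with leaving out whole times. The deviations of replicate 1 from the mean of its time had correlations of -0.13 to 0.04 between times, so the numbers do not pair the arrays. With the replicate block 81 passed (24 higher), 80 of them among the 116. Over the named genes and the settings, 327 values left the called side, 75 entered it and none changed sign while called. Probe sets near the 40th percentile have uncertain fold changes.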
